A study of Mus musculus with 72 samples.

Results

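In the pancreatic islets of mice on regular chow (RC), 119 of 14604 measured genes were set apart in the inbred strain C57BL/6J from both DBA/2J and BALB/cJ, the other inbred strains of the study. Their mean level in C57BL/6J, as log2 CPM (read counts scaled to a common library size), lay at least 2 above or at least 2 below the mean of each other strain, and their highest strain mean was 1 or more. A difference of 2 on the log2 scale is 4-fold. Of the 119 genes, 39 were higher in C57BL/6J and 80 were lower. Genes whose symbols start with H2-, Rpl, Rps, Col or Try, and Ctrc, Amy2b and Gp2, were left out, which removed 11 genes that otherwise met the rule. The same rule centred on DBA/2J gave 75 genes (45 higher and 30 lower), and centred on BALB/cJ it gave 51 (30 higher and 21 lower).

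The mice were males, 8 weeks old, of C57BL/6J, DBA/2J or BALB/cJ, and were fed either RC or a high-fat diet (HFD) for 5, 13 or 33 days. Each of the 69 libraries held RNA of 120 to 150 hand-picked islets from 1 mouse, so p-values measure the spread between mice. There were 11 RC and 12 HFD libraries of C57BL/6J, 11 and 11 of DBA/2J, and 12 and 12 of BALB/cJ. The recovered reads numbered 12292621 to 34591079 per library, and the lowest value in the table, -3.54 log2 CPM (0.0862 CPM), stands for a gene with no read. The islet identity of the samples was checked on 32 beta-cell genes, whose summed level had a median of 205644 to 261797 CPM in the 6 strain and diet groups. Because islets were sequenced in bulk, fewer cells of a type and less RNA per cell cannot be told apart.

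Islets are clusters of hormone-secreting cells, most of them insulin-producing beta cells, with capillaries, support cells and, after isolation, some remaining acinar tissue. Inbred strains differ at fixed alleles across the genome, so each strain can carry its own version of a gene's regulatory or coding sequence. The mouse reference genome GRCm38, against which the reads of all 3 strains were placed, is the sequence of C57BL/6J. Many genes also have processed pseudogenes, copies of a messenger RNA that were written back into the genome and that can be almost identical to their parent gene.

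Near-identical copies made up a large share of the lower genes. A match was defined as another transcript of at least 95% identity over at least 200 bases and at least 50% of the gene's transcript. Of the 80 lower genes, 45 had such a match (56.2%), against 4 of the 39 higher genes (10.3%) and 524 of all 14604 genes (3.59%). Pseudogenes were 34 of the 80 lower genes and 2 of the 39 higher genes, and 1.96% of all genes. How the authors' counting treated reads that fit several places is not given in the sources used here, so the split of reads between a copy and its match is uncertain for all of these genes. Windows of 100 bases from 3 such pairs are shown because the reads were 125 bases long, and capitals mark the bases that differ between the copy and its match. Each window is the one with the most differences inside the coding sequence of the match. Inside a window only the capitals tell a copy from its match. For Gm8730 and Rbpj-ps3 a longer read may reach differing bases beyond the window. The alignment of Atp6v0c-ps2 holds no other differing base. The sequences are those of transcripts of the mouse GENCODE release M21.
Gm8730: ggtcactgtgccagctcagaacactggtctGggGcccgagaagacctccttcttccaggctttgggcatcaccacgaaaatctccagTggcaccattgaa
Rplp0: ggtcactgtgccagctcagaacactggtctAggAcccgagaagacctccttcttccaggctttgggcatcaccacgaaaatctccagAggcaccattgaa
Atp6v0c-ps2: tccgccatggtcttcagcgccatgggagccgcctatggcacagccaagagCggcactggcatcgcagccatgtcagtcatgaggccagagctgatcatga
Atp6v0c: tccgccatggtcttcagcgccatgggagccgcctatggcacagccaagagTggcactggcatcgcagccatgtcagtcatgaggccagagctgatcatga
Rbpj-ps3: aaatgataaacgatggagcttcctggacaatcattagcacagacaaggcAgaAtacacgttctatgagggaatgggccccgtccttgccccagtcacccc
Rbpj: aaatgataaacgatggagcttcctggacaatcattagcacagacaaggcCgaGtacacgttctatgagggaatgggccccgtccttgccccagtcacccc

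Gm8730 (chr8:102864845-102865798, minus strand, GRCm38) differs from Rplp0 at 12 of 954 aligned bases. Atp6v0c-ps2 (chr6:37806086-37806550, plus strand) differs from Atp6v0c at 1 of 465, the base shown. Rbpj-ps3 (chr6:46529354-46530794, minus strand) differs from Rbpj at 4 of 1441. All 3 are single-block copies on another chromosome than the gene they resemble, which lies at chr5:115559467-115563727 for Rplp0, chr17:24163866-24169702 for Atp6v0c and chr5:53466152-53657362 for Rbpj.

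The copy and its match were then read together in the HFD libraries, which had no part in choosing the genes. Gm8730 ranged from -3.54 to -0.74 log2 CPM in C57BL/6J (median -1.39), from 6.22 to 7.03 in DBA/2J (median 6.63) and from 6.16 to 7.01 in BALB/cJ (median 6.67). Rplp0, which encodes the stalk protein P0 of the large ribosomal subunit, ranged from 8.28 to 8.87 in C57BL/6J (median 8.63), from 7.60 to 8.15 in DBA/2J (median 7.86) and from 7.57 to 8.17 in BALB/cJ (median 7.93). The C57BL/6J libraries were thus lowest for the copy and highest for Rplp0 and overlapped neither DBA/2J nor BALB/cJ, which overlapped each other. Rplp0 was higher in C57BL/6J by 0.72 ± 0.07 (SE, log2) than in DBA/2J and by 0.72 ± 0.07 than in BALB/cJ (adjusted p = 1.87e-10 and 1.27e-10, limma with Benjamini-Hochberg adjustment, here and in all later tests). Of the reads of Gm8730 and Rplp0 summed, the copy took a median of 0.071% in C57BL/6J, 29.5% in DBA/2J and 30.0% in BALB/cJ. The sum of the pair differed by only 0.22 and 0.21 between the strain means.

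Atp6v0c, which encodes the membrane-ring subunit c of the vacuolar proton pump, showed a larger shift of the same kind. Its own level had medians of 4.69 log2 CPM in C57BL/6J, 2.58 in DBA/2J and 2.57 in BALB/cJ under HFD, with lowest and highest values of 4.33 and 5.04, 2.29 and 3.43, and 1.85 and 2.95. The gene was higher in C57BL/6J by 1.99 ± 0.11 and 2.19 ± 0.10 (adjusted p = 9.09e-17 and 3.18e-18). Atp6v0c-ps2 took a median of 0.613% of the pair's reads in C57BL/6J, 87.0% in DBA/2J and 85.7% in BALB/cJ, and the summed level lay on the other side, 0.79 and 0.65 lower in C57BL/6J as log2 differences of the means.

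Rbpj encodes the DNA-binding factor through which Notch receptors act. It was higher in C57BL/6J by 1.23 ± 0.06 and 1.25 ± 0.06 (adjusted p = 1.49e-17 and 4.48e-18), with a range of 4.52 to 5.00 in C57BL/6J, 3.19 to 3.74 in DBA/2J and 3.30 to 3.73 in BALB/cJ. The copy took 0.208%, 16.2% and 19.2% of the pair's reads, and the sum was still 0.96 and 0.94 higher in C57BL/6J. For Rbpj, then, adding the copy left most of the strain difference in place, unlike for Rplp0.

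Across all lower genes, 38 had a match among the measured genes that was not itself set apart, and these were 36 distinct genes. Under HFD, 20 of the 36 matches (55.6%) were higher in C57BL/6J than in both strains, compared with 17.3% of all genes, and 4 (11.1%) were lower than in both, compared with 17.9%. The median difference of the 38 lower genes was -4.79 against DBA/2J and -4.63 against BALB/cJ, that of their matches was 0.28 and 0.36, and that of the summed pairs was 0.05 and 0.13. The sum lay within 0.5 of both strains for 27 of the 38 pairs (71.1%), close to the 72.0% of all genes that do. The pattern was not uniform: Gapdh, the glycolytic enzyme matched by Gm13394 at 99.9% identity, differed by -0.09 from DBA/2J (adjusted p = 0.297) and by 0.16 from BALB/cJ (adjusted p = 0.0504), and Glo1, the methylglyoxal-detoxifying glyoxalase matched by Gm13443, was lower in C57BL/6J by 1.00 and 1.07 on the log2 scale. Tpm3-rs7, a copy of the tropomyosin gene Tpm3, was lower by 6.09 ± 0.11 and 6.08 ± 0.11 on the log2 scale. Eif3j2, matched by the translation initiation factor gene Eif3j1, was lower by 5.28 ± 0.18 and 5.28 ± 0.17. Apart from Tpm3-rs7 and Eif3j2, the pairs and predicted genes named here were picked after their values were seen.

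**Figure D1:**
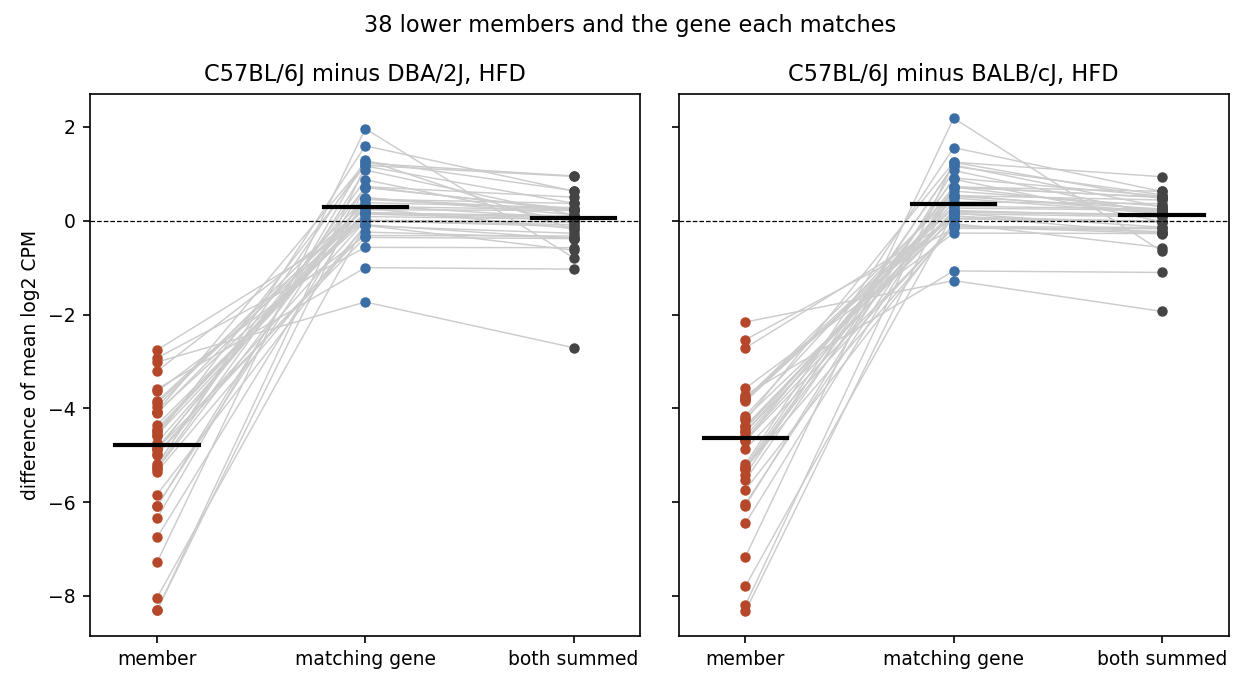
Difference between C57BL/6J and the other strains under HFD (log2) for the 38 lower genes with a near-identical match, for the matches themselves and for the reads of each pair summed, with grey lines joining a pair and black bars at the medians. The lower genes have a median of -4.79 against DBA/2J, the matches one of 0.28 and the sums one of 0.05.

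Of the higher genes, 4 had such a match: Dynlt1a, Trim34a, Gm3055 and Srp54a. Srp54a encodes a form of the 54 kDa subunit of the signal recognition particle, which brings secretory proteins to the endoplasmic reticulum. It took a median of 14.8% of the summed Srp54a and Srp54c reads in C57BL/6J, and 0.723% and 0.517% in DBA/2J and BALB/cJ, while the sum differed by 0.06 and -0.01. Trim34a and Trim34b, interferon-inducible relatives of the antiretroviral protein TRIM5, moved in opposite directions: Trim34a was higher in C57BL/6J by 2.88 and 2.47, and Trim34b was lower by 3.40 ± 0.17 and 3.99 ± 0.16 on the log2 scale. Even summed, this pair was 1.84 and 1.35 higher in C57BL/6J.

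The strain differences that chose the genes on RC are a description and were not tested. The HFD libraries come from other mice, and there the genes were tested over all 14604 genes. All 39 higher genes were above both strains at an adjusted p under 0.05 (17.3% of all genes were) and 78 of the 80 lower genes were below both (17.9%). Taken singly, 117 of the 119 genes differed from DBA/2J (55.6% of all genes did) and 119 from BALB/cJ (51.6%). With a difference of at least 2 against both strains also asked for, the counts were 39 of 39 (0.418% of all genes) and 71 of 80 (0.746%). The C57BL/6J libraries lay wholly above all others for 36 of the 39 higher genes (1.88% of all genes) and wholly below for 74 of the 80 lower genes (1.81%). The smaller of the differences from DBA/2J and BALB/cJ had a median of 2.81 for the higher genes under RC and 2.68 under HFD, and of -4.10 and -4.08 for the lower genes. After 5, 13 and 33 days of HFD the medians were 2.65, 2.83 and 2.79 for the higher genes and -3.93, -4.05 and -4.14 for the lower genes.

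**Figure D2:**
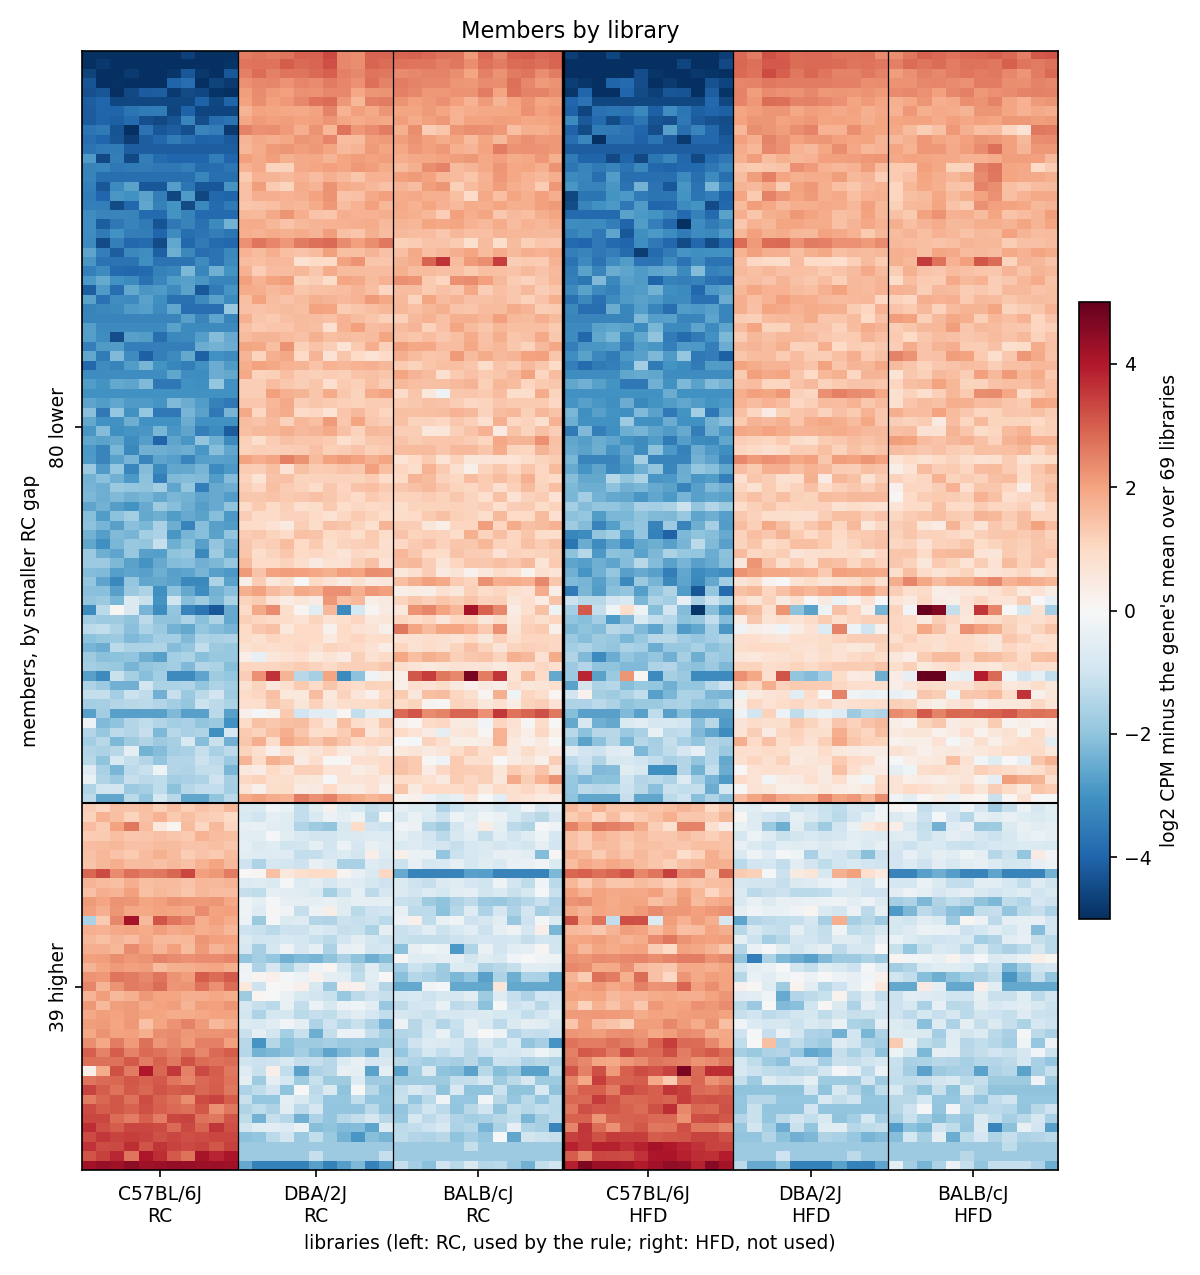
Levels of the 119 genes (rows) in the 69 libraries (columns, RC on the left and HFD on the right, each split by strain), as log2 CPM minus the gene's mean over all 69 libraries, with blue below and red above it. In C57BL/6J most of the 80 lower genes are blue and most of the 39 higher genes red on both diets, with exceptions in single libraries such as those of Prss3, Gm5771 and Slc15a2.

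**Figure D3:**
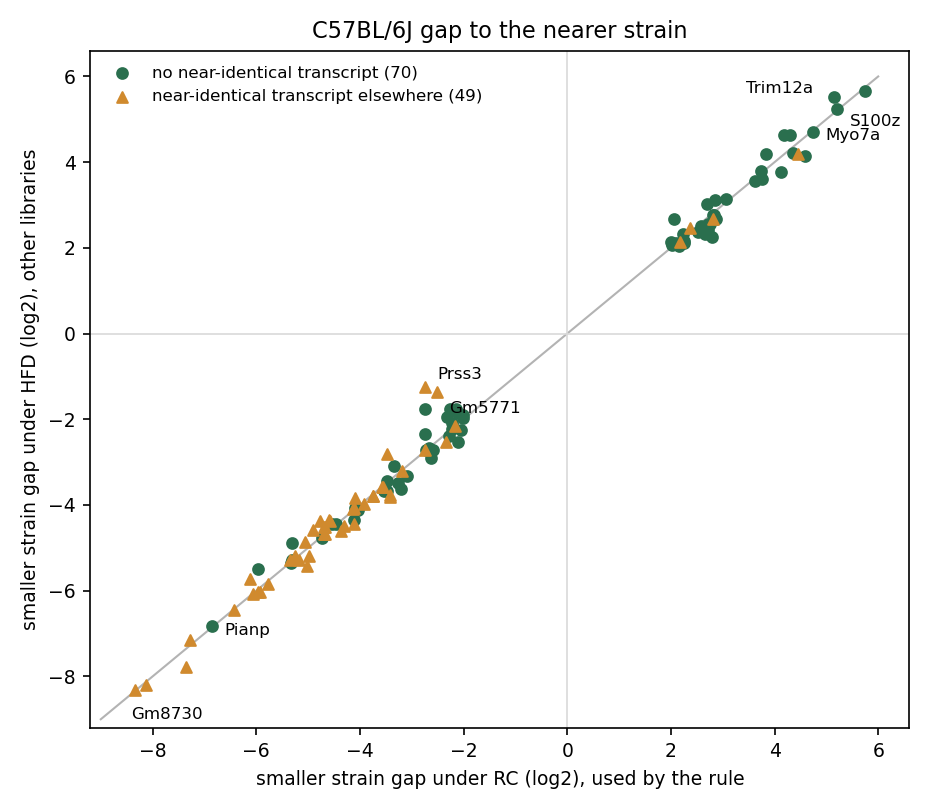
The smaller of the differences of C57BL/6J from DBA/2J and BALB/cJ (log2) under RC, on the horizontal axis, and under HFD, on the vertical axis, for each of the 119 genes, with triangles for the 49 genes that have a near-identical match, circles for the other 70 and a line of equality. All 119 genes keep their sign under HFD, and the 2 lower genes that missed the test, Prss3 and Gm5771, lie nearest to 0.

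The exceptions were Prss3, a digestive trypsin, and Gm5771, a predicted trypsinogen gene, both products of acinar cells. Prss3 ranged from -3.54 to 4.41 log2 CPM in C57BL/6J under HFD (median -0.11), from -1.36 to 3.55 in DBA/2J (median 2.17) and from -0.37 to 6.31 in BALB/cJ (median 2.02), so that all 3 strains overlapped. It differed by -1.25 ± 0.64 from DBA/2J (adjusted p = 0.0968) and by -2.41 ± 0.62 from BALB/cJ (adjusted p = 0.00168). Gm5771 differed by -1.36 ± 0.75 (adjusted p = 0.124) and -2.53 ± 0.73 (adjusted p = 0.00445). The summed level of 26 acinar genes, all of them enzymes or factors of the exocrine pancreas, spread widely within each strain: from 503 to 6618 CPM in C57BL/6J under HFD (median 2846), from 791 to 12762 in DBA/2J (median 4720) and from 737 to 58468 in BALB/cJ (median 3985). Under RC the medians were 1083, 4454 and 3933 CPM, and the part of acinar RNA in the differences of Prss3 and Gm5771 was not tested.

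On the log2 CPM scale, Pianp had the widest difference among the protein-coding genes that are not predicted genes. By read ratios, genes with almost no reads in a strain, such as S100z and Trim12a, differed more, as given below. It encodes a membrane protein that binds the paired immunoglobulin-like receptor PILRα and that joins GABA-B receptor complexes in the brain (chr6:124996694-125003096, plus strand, GRCm38). Under RC its level ranged from -1.14 to 0.41 log2 CPM in C57BL/6J (median 0.03), from 6.49 to 6.97 in DBA/2J (median 6.80) and from 6.52 to 7.28 in BALB/cJ (median 6.92). Under HFD the ranges were -0.59 to 0.60, 6.64 to 7.04 and 6.59 to 7.07, so that the C57BL/6J libraries lay far below all others. The differences were -6.83 ± 0.11 and -6.93 ± 0.11 (adjusted p = 1.31e-30 and 4.45e-31), and the smaller one is 114-fold.

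Fmo1 and Fmo2 encode flavin-containing monooxygenases, which oxidise nitrogen and sulfur atoms of drugs and other foreign compounds. Fmo1 ranged from 2.71 to 3.89 log2 CPM in C57BL/6J under HFD (median 3.03), from 6.75 to 7.26 in DBA/2J (median 7.13) and from 5.73 to 7.37 in BALB/cJ (median 6.83), without overlap. It was lower by 3.94 ± 0.11 and 3.67 ± 0.11, and Fmo2 by 3.44 and 3.64, on the log2 scale. The related Fmo4 fell short of the rule on RC and differed by -1.08 and -1.53 under HFD. Fmo5 was higher in C57BL/6J by 0.92 and 0.82 under HFD, so the family did not move as a block. Cyp39a1, a hydroxylase of 24-hydroxycholesterol, was lower by 2.54 and 2.38 on the log2 scale.

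Acsm3, a mitochondrial enzyme that activates medium-chain fatty acids with coenzyme A, ranged from -3.54 to -1.36 log2 CPM in C57BL/6J, from 1.78 to 2.37 in DBA/2J and from 1.43 to 3.04 in BALB/cJ. Its differences were -4.45 ± 0.19 and -4.74 ± 0.19, and the smaller is 21.9-fold. On the higher side, Eci3, an enoyl-CoA isomerase used in the breakdown of unsaturated fatty acids, differed by 2.94 ± 0.23 and 2.77 ± 0.22. Abcc2, the export pump for glutathione and glucuronide conjugates, differed by 3.70 ± 0.31 and 3.56 ± 0.30, with a range of 1.38 to 2.87 in C57BL/6J, -2.39 to 0.91 in DBA/2J and -2.52 to 0.71 in BALB/cJ. Among 35 measured genes of glutathione and xenobiotic conjugation, none was set apart by the rule, 7 were above both strains (17.3% of all genes were) and 8 below both (17.9%) under HFD.

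A pair of glycogen-targeting subunits of protein phosphatase 1 was set apart in opposite directions. These proteins hold the phosphatase on glycogen, where it activates glycogen synthase. Ppp1r3b was lower in C57BL/6J, with a range of 2.36 to 3.16 log2 CPM under HFD (median 2.63) against 5.51 to 6.05 in DBA/2J (median 5.74) and 5.15 to 5.79 in BALB/cJ (median 5.45). Ppp1r3e was higher in C57BL/6J, with 3.65 to 3.96 (median 3.86) against 1.44 to 2.00 (median 1.82) and 1.30 to 1.71 (median 1.63). Neither gene overlapped between C57BL/6J and the other strains. The differences were -3.03 ± 0.09 and -2.71 ± 0.08 for Ppp1r3b, and 2.04 ± 0.07 and 2.29 ± 0.06 for Ppp1r3e. Ppp1r3d differed by -0.37 and 0.14, and Ppp1r3c by -0.26 (adjusted p = 0.359) and 1.27 (adjusted p = 2.42e-05).

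Among transporters, Slc26a1, an exchanger of sulfate and oxalate, ranged from -0.38 to 0.37 log2 CPM in C57BL/6J under HFD (median -0.03), from 3.88 to 4.61 in DBA/2J (median 4.42) and from 3.65 to 4.84 in BALB/cJ (median 4.43). It was lower by 4.35 ± 0.10 and 4.41 ± 0.10, a fold of 20.4 for the smaller difference. Other sulfate and anion exchangers of its family did not share this: Slc26a2 was higher by 0.29 and 0.33, and Slc26a6 differed by 0.02 and -0.05 (adjusted p = 0.942 and 0.817). Slc39a8, an importer of zinc and manganese, was lower by 2.20 and 1.85 on the log2 scale. Slc15a2, the high-affinity carrier of small peptides, was higher by 2.82 ± 0.48 and 2.33 ± 0.47 but spread from -1.08 to 3.38 within C57BL/6J under HFD and from -1.44 to 4.32 under RC, so its groups overlapped.

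**Figure D4:**
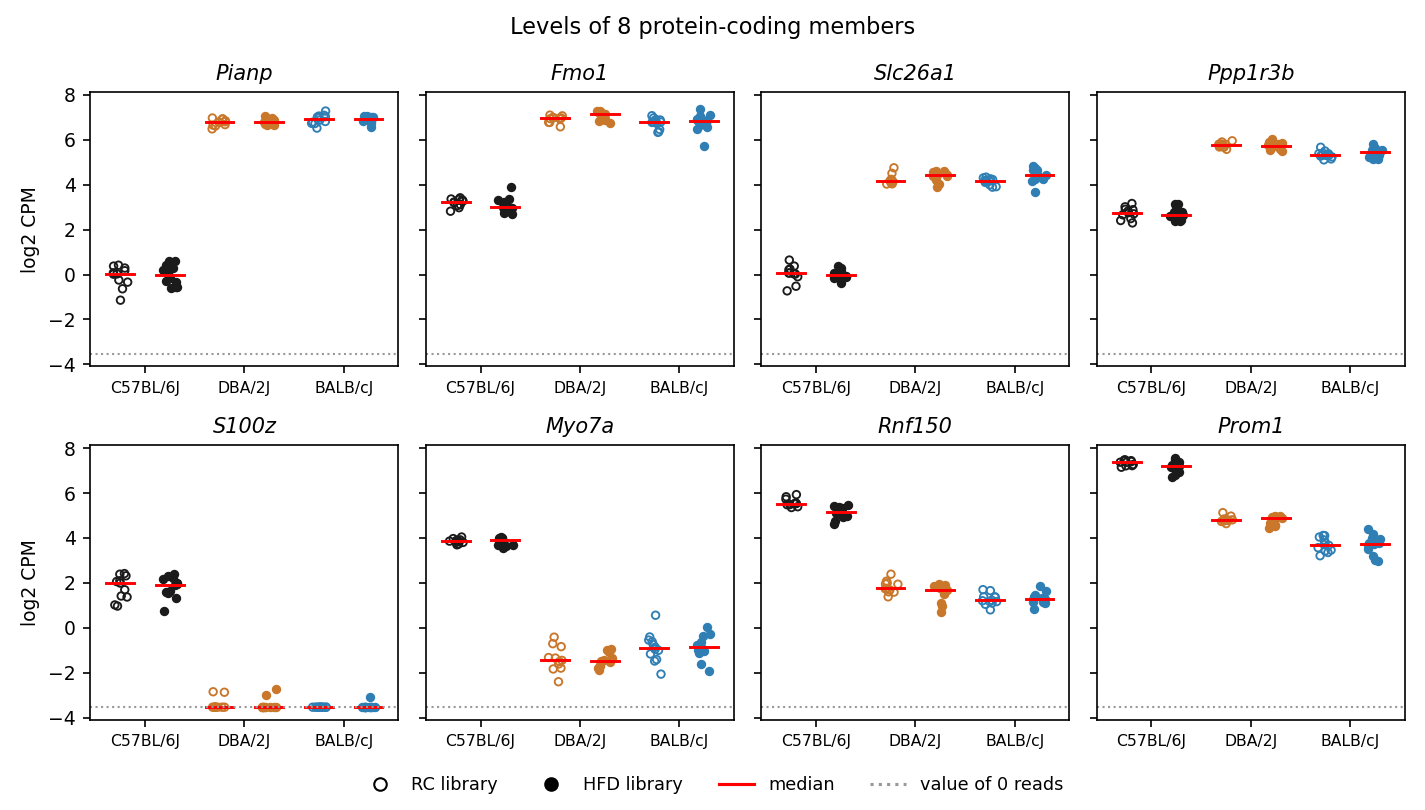
Level (log2 CPM) of Pianp, Fmo1, Slc26a1, Ppp1r3b, S100z, Myo7a, Rnf150 and Prom1 in every library, by strain and diet, with a bar at the median of each group. In each panel the C57BL/6J libraries lie apart from all libraries of the other strains, and for Prom1 the DBA/2J libraries also lie above those of BALB/cJ.

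Tnr, tenascin-R of the extracellular matrix around neurons, ranged from 8.63 to 9.53 log2 CPM in C57BL/6J under HFD (median 8.95), against 5.19 to 6.45 in DBA/2J and 5.18 to 6.59 in BALB/cJ. Its differences were 3.02 ± 0.13 and 3.03 ± 0.13, and the smaller is 8.14-fold. Olfm3, a secreted olfactomedin of nerve cells, differed by 4.14 ± 0.28 and 4.56 ± 0.27. Prom1, the membrane glycoprotein prominin-1 of cell protrusions, ranged from 6.72 to 7.57 in C57BL/6J, from 4.46 to 4.96 in DBA/2J and from 2.97 to 4.41 in BALB/cJ.

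On the lower side, Angptl7, a secreted angiopoietin-like protein, ranged from 1.78 to 2.85 log2 CPM in C57BL/6J under HFD, from 6.13 to 6.91 in DBA/2J and from 6.46 to 7.41 in BALB/cJ. Stc2, the secreted glycoprotein stanniocalcin-2, was lower by 4.34 and 3.33 on the log2 scale. Aplnr, the receptor of the peptide apelin and mainly a gene of endothelial cells, differed by -2.54 ± 0.25 and -2.57 ± 0.24, with a range of -0.55 to 1.92 in C57BL/6J, 2.58 to 4.001 in DBA/2J and 2.11 to 3.74 in BALB/cJ. Apln, its ligand, was also lower, by 1.71 and 0.80. Of 15 measured endothelial marker genes, 10 were below both strains (17.9% of all genes were) and 0 above both (17.3%) under HFD, with median differences of -0.46 and -0.55. Their summed level ranged from 586 to 797 CPM in C57BL/6J, from 759 to 1143 in DBA/2J and from 803 to 1025 in BALB/cJ, and the part of endothelial RNA in the difference of Aplnr was not tested.

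Tdrd6, a tudor-domain protein of the RNA-rich bodies of male germ cells, ranged from -2.65 to -0.92 log2 CPM in C57BL/6J under HFD (median -2.03), from 3.46 to 4.29 in DBA/2J (median 3.90) and from 2.52 to 4.45 in BALB/cJ (median 3.37). It was lower by 5.90 ± 0.20 and 5.49 ± 0.20. Tex15, required for meiotic recombination and transposon silencing in the testis, was lower by 4.80 ± 0.14 and 4.78 ± 0.13, with a highest C57BL/6J value of 0.25 and a lowest value elsewhere of 3.38. Rec8, the meiotic kleisin of the cohesin ring, was higher by 2.55 ± 0.16 and 3.08 ± 0.16, with 4.59 to 5.62 in C57BL/6J, 2.02 to 3.22 in DBA/2J and 0.93 to 2.60 in BALB/cJ.

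Some genes had reads in one strain and almost none in another, so that a fitted difference depends on the value given to a library without reads. Trim12a, a mouse relative of the antiretroviral protein TRIM5, had 1203 reads over the 12 HFD libraries of C57BL/6J, 0 over the 11 of DBA/2J and 1 over the 12 of BALB/cJ. Against a floor of 3 reads over the DBA/2J libraries this is at least 338-fold higher, and the ratio to BALB/cJ was 1140 (95% interval 204 to 45071, exact, counting error only). S100z, a small calcium-binding protein of the S100 family, had 1059, 2 and 1 reads, with ratios of 446 (123 to 3687) and 1004 (180 to 39680). Gm11127, a predicted protein-coding gene, had 0 reads in C57BL/6J and 1359 and 1720 in the others, at least 538-fold and 605-fold lower. Eno1b, a single-exon relative of the glycolytic enolase Eno1 and itself a near-identical copy, had 4 reads in C57BL/6J and 2541 and 2298 in the others.

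S100z and Iqgap2 start within 1 Mb of each other on chromosome 13 and went opposite ways, and Gm20075 of the same cluster was lower. Iqgap2, a scaffold protein that binds calmodulin, was lower by 2.72 ± 0.09 and 2.71 ± 0.08. Iqgap1 differed by 0.14 and -0.07, so no difference of that size was seen in its relative. Within 1 Mb of another of the genes set apart lay 42 of the 117 that could be placed on the annotation (35.9%), against 13.7% of all other genes with such a gene nearby, and 24 of 68 (35.3%) among those without a near-identical match. These formed 19 clusters, 12 of them with genes of 1 direction. No share to compare this with was computed, and with 80 lower and 39 higher genes some clusters share a direction by the numbers alone. The cluster with the most genes held A930015D03Rik, Gm11127, Gm10499 and Gm8909, all lower, at chr17:35994453-36168537. Others paired Fmo1 with Fmo2, Tdrd6 with Cyp39a1, Trim12a with Trim34a, and Rec8 with Ppp1r3e and Gm43305. Genes of 1 cluster are not independent cases. Genes that the rule left out by symbol, such as those starting with H2-, could not be counted in any cluster.

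Ccdc178, a coiled-coil protein without a near-identical match, ranged from -3.54 to -2.60 log2 CPM in C57BL/6J under HFD, from 0.89 to 1.71 in DBA/2J and from 0.74 to 1.72 in BALB/cJ, and differed by -4.44 ± 0.14 from each. Myo7a, the unconventional myosin of sensory hair cells, ranged from 3.56 to 4.05 log2 CPM in C57BL/6J under HFD, from -1.86 to -0.95 in DBA/2J and from -1.94 to 0.03 in BALB/cJ, with differences of 5.29 ± 0.17 and 4.72 ± 0.17. Rnf150, a membrane-bound RING-finger protein, ranged from 4.64 to 5.45, 0.71 to 1.94 and 0.84 to 1.88, with differences of 3.60 ± 0.13 and 3.82 ± 0.13. Smim6 encodes endoregulin, a micropeptide that inhibits the calcium pump of the endoplasmic reticulum, and it was higher by 2.87 and 2.76. On the log2 CPM scale, the widest difference among all higher genes was that of AI506816, a non-coding transcript, at 5.75 under RC and 5.65 under HFD. It had 5081 reads in C57BL/6J under HFD, 14 in DBA/2J and 77 in BALB/cJ, a narrower ratio than those of Trim12a and S100z. Serpina1b, an alpha-1-antitrypsin form and the only gene set apart among all genes of the marker and pathway lists, was lower by 2.99 ± 0.17 and 2.16 ± 0.17. Its family holds near-identical members, so its reads are uncertain too. The acinar and stellate cell lists hold genes that the rule left out by symbol (those starting with Try or Col, and Ctrc, Amy2b and Gp2). Those genes could not be set apart.

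Of all genes, 17.9% were below both strains under HFD and 17.3% above both. Counted in that order, the lists held 5 and 6 of 32 beta-cell genes, 13 and 0 of 23 genes normally silenced in beta cells, 3 and 2 of 12 alpha-cell genes, 3 and 0 of 9 delta-cell genes and 1 and 1 of 6 genes of PP and epsilon cells. The other cell lists held 4 and 0 of 26 acinar genes, 3 and 2 of 12 ductal genes, 8 and 0 of 17 stellate cell and fibroblast genes, 0 and 3 of 15 macrophage genes, 1 and 1 of 6 lymphocyte genes, 1 and 0 of 3 adipocyte genes and 1 and 1 of 8 Schwann cell genes. Among 41 interferon-induced genes 8 were below and 14 above both strains, among 25 genes of endogenous retrovirus silencing 1 and 6, and among 33 genes of complement and coagulation 10 and 4. For the genes normally silenced in beta cells the median differences were -0.46 and -0.60, against -0.0114 and -0.00197 for all genes.

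DBA/2J and BALB/cJ, which the rule compares only with C57BL/6J, were then compared with each other under HFD. Of the 119 genes, 37 differed between them, near the 32.1% of all genes that did. The median absolute difference was 0.18 for the 119 genes and 0.13 for all genes. Gbp2b, an interferon-inducible guanylate-binding GTPase, differed between all 3 strains: 8 of the 12 C57BL/6J libraries had no read and the highest was at -2.08 log2 CPM, DBA/2J ranged from -2.63 to 0.35 and BALB/cJ from 1.42 to 2.28. Its DBA/2J minus BALB/cJ difference was -3.44 ± 0.21 (adjusted p = 3.08e-15), and only the C57BL/6J and DBA/2J libraries overlapped.

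Fggy, a carbohydrate kinase, was highest in C57BL/6J (3.69 to 4.06), intermediate in BALB/cJ (0.77 to 1.77) and lowest in DBA/2J (-1.95 to -0.07), with a DBA/2J minus BALB/cJ difference of -1.999 ± 0.14 (adjusted p = 3.58e-13). Prmt8, a membrane-bound arginine methyltransferase of neurons, was 2.04 ± 0.20 higher in DBA/2J than in BALB/cJ (adjusted p = 6.81e-10), and Prom1 was 1.10 ± 0.11 higher (adjusted p = 5.47e-10). Pttg1, the securin that restrains separase in mitosis, was 1.27 ± 0.16 higher in DBA/2J (adjusted p = 7.99e-08), and Hmga1b, a copy of a chromatin protein gene, 0.93 ± 0.11 higher (adjusted p = 1.29e-08). Tmem45a, a multi-pass membrane protein, was 1.23 ± 0.27 higher in BALB/cJ on the log2 scale (adjusted p = 0.000533).

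Few of these genes were called for diet. The diet comparisons use the RC libraries, which also chose the genes. A change with HFD that narrows a strain difference can arise in part from that choice, and its part was not tested. In C57BL/6J, HFD minus RC over the 3 days was called for 6 of the 119 genes, against 14.6% of all genes. The median absolute change was 0.12 for the 119 genes and 0.10 for all genes, so the low count of calls does not show smaller changes. A930015D03Rik, annotated as an antisense RNA, ranged from -0.52 to 0.71 log2 CPM on RC (median -0.03) and from 0.29 to 1.396 on HFD (median 0.70), with some overlap. It rose by 0.68 ± 0.10 (adjusted p = 1.06e-05), which narrowed its distance to DBA/2J (3.19 to 3.84 under HFD) and BALB/cJ (3.17 to 3.92). Whether the authors' counting used strand is not given in the sources used here, so its reads cannot be told apart from those of the overlapping gene on the other strand. The difference of its diet effect from that in DBA/2J was 0.67 ± 0.14 (adjusted p = 0.0243) and from that in BALB/cJ 0.74 ± 0.14 (adjusted p = 0.00735). It was the only 1 of the 119 genes called in either of these comparisons of diet effects, where 1.11% and 1.27% of all genes were. Leaving out a single library kept both of its calls, and the counts were 2 and 3 without C57BL/6J HFD day 13 replicate 2, 2 and 2 without C57BL/6J RC day 5 replicate 4, and 3 in the second without BALB/cJ RC day 13 replicate 4. The first difference was 0.86 (adjusted p = 0.174) without day 13 and 0.50 (adjusted p = 0.0743) without day 33, and the second missed the threshold without day 5 (0.73, adjusted p = 0.163), day 13 (0.87, adjusted p = 0.0599) or day 33 (0.62, adjusted p = 0.0502).

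Trim12a rose by 0.38 ± 0.11 with HFD in C57BL/6J (adjusted p = 0.0113), from 1.39 to 1.98 log2 CPM on RC to 1.65 to 2.44 on HFD. The call was lost without day 5 (0.41, adjusted p = 0.123) and without day 13 (0.29, adjusted p = 0.249). Rnf150 fell by 0.44 ± 0.12 on the log2 scale (adjusted p = 0.0077), from 5.35 to 5.93 on RC to 4.64 to 5.45 on HFD, and its change was -0.32 ± 0.12 in DBA/2J and 0.05 ± 0.11 in BALB/cJ. The differences between strains in the diet effect of Rnf150 had adjusted p of 0.756 and 0.0913. Its call was lost without day 5 (-0.35, adjusted p = 0.135) and with acinar, macrophage and stellate cell scores as covariates (-0.37, adjusted p = 0.0579). The other 3 were the predicted non-coding genes or pseudogenes Gm15920 (0.35 ± 0.11, adjusted p = 0.0248), 2700038G22Rik (0.39 ± 0.14, adjusted p = 0.0449) and Gm5860 (-0.61 ± 0.19, adjusted p = 0.0229). Gm5860 lost its call without C57BL/6J HFD day 5 replicate 2 (-0.52, adjusted p = 0.0537) or HFD day 13 replicate 4 (-0.53, adjusted p = 0.0573). Gm15920 lost it without C57BL/6J HFD day 5 replicate 4 (0.31, adjusted p = 0.0597), HFD day 13 replicate 4 (0.30, adjusted p = 0.0622) or RC day 13 replicate 3 (0.27, adjusted p = 0.0702), and 2700038G22Rik without any 1 of 14 C57BL/6J libraries. All 3 also lost it with the cell type scores as covariates (adjusted p = 0.0869 for Gm5860, 0.123 for Gm15920 and 0.131 for 2700038G22Rik). Gm15920 was at 0.04 (adjusted p = 0.654) with log2(CPM + 1), at 0.79 (adjusted p = 0.109) under voom, at 0.32 (adjusted p = 0.0809) without day 13 and at 0.18 (adjusted p = 0.460) without day 33. Gm5860 and 2700038G22Rik lost their calls without any 1 of the 3 days, and 2700038G22Rik also with log2(CPM + 1) (0.22, adjusted p = 0.0787), array weights (0.26, adjusted p = 0.0794) and voom (0.41, adjusted p = 0.102). The count of called genes was 10 without C57BL/6J HFD day 13 replicate 2 and 3 without C57BL/6J HFD day 13 replicate 4.

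In DBA/2J, limma called 0 of the 119 genes for HFD minus RC (0% of all genes), with 7 under 0.05 before adjustment and 0 by limma voom on whole reads. In BALB/cJ it called 0 as well (0.151% of all genes), with 9 under 0.05 before adjustment and 0 by voom. These counts do not show that the diet left the genes at the same level.

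**Figure D5:**
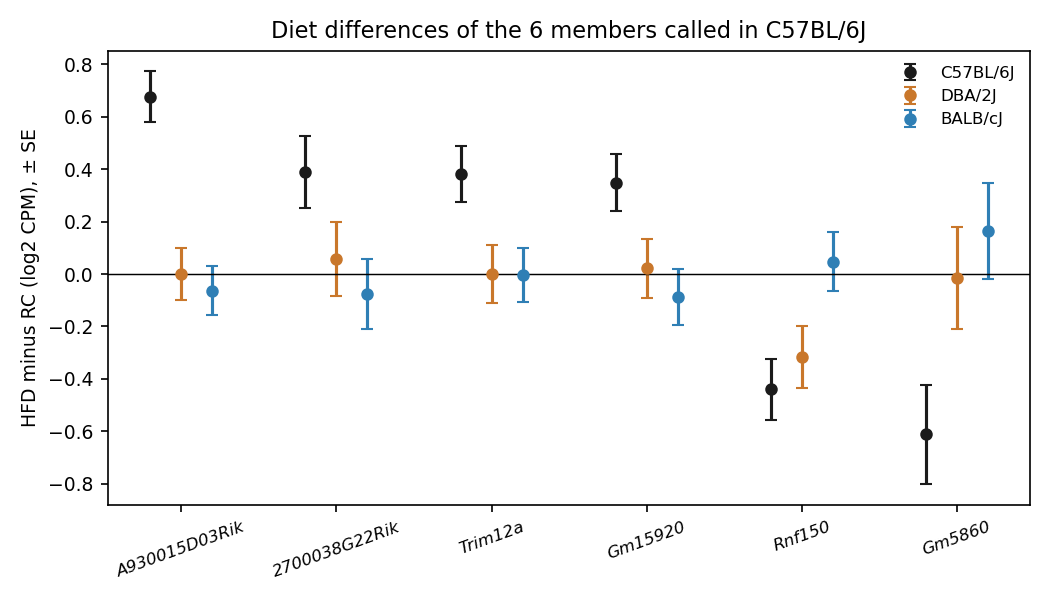
HFD minus RC (log2) in C57BL/6J, DBA/2J and BALB/cJ for the genes called in C57BL/6J, each with its standard error. A930015D03Rik stands at 0.68 in C57BL/6J and at 0.00 and -0.06 in the other strains, while Rnf150 is below 0 in C57BL/6J and DBA/2J.

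Time on diet was compared as day 33 minus day 5. Mice of different days can also differ in age and date of collection, which cannot be told apart from time on diet. The comparison over both diets includes RC libraries, which also chose the genes. In C57BL/6J, over both diets, S100z was the only 1 of the 119 genes called (0.623% of all genes were), with a rise of 0.76 ± 0.18 (adjusted p = 0.0238). Its levels at day 5 were 0.97 to 2.06 log2 CPM on RC and 0.76 to 1.63 on HFD. At day 33 they were 2.09 to 2.41 and 1.94 to 2.20, so that the days did not overlap on either diet, narrowly so on RC. The call was lost with the cell type scores as covariates (0.74, adjusted p = 0.0935). It was also lost without C57BL/6J HFD day 5 replicate 2 (0.66, adjusted p = 0.0889), RC day 5 replicate 1 (0.74, adjusted p = 0.0502), RC day 5 replicate 4 (0.66, adjusted p = 0.0900), RC day 33 replicate 1 (0.73, adjusted p = 0.0875) or RC day 33 replicate 4 (0.74, adjusted p = 0.0900). The count was 3 without C57BL/6J HFD day 5 replicate 1 or replicate 3, and 2 without DBA/2J RC day 13 replicate 4 or BALB/cJ HFD day 5 replicate 2.

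The change of the strain difference under HFD from day 5 to day 33 was called for 2 of the 119 genes against DBA/2J (7.34% of all genes), both near-identical copies with few reads in C57BL/6J. Gm10260, a copy of the ribosomal protein gene Rps18, had a change of 1.45 ± 0.29 (adjusted p = 0.0109), and had 27 reads over all 12 C57BL/6J HFD libraries. Gm13394 had 1.32 ± 0.31 (adjusted p = 0.0177), which missed the threshold without C57BL/6J HFD day 5 replicate 3 (1.16, adjusted p = 0.0565), without DBA/2J HFD day 5 replicate 3 (1.22, adjusted p = 0.0666) and under voom (2.32, adjusted p = 0.0537). The count was 7 without C57BL/6J HFD day 33 replicate 1, 5 without DBA/2J HFD day 5 replicate 1 and 6 without DBA/2J HFD day 5 replicate 2. Against BALB/cJ, limma called 0 of the 119 genes (0% of all genes), with 8 reaching p under 0.05 before adjustment and 0 by voom.

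Near the threshold of the rule, the higher genes with the smallest RC differences were the non-coding C920006O11Rik (2.01), the protocadherin Pcdhga11 (2.02) and the predicted Gm44164 (2.05). Just outside were the phosphatase Dusp26 (1.96), Gm2762 (1.98) and the protocadherin Pcdhgb6 (1.98). On the lower side Prmt8 (-2.01), ENSMUSG00000101828.1 (-2.02) and Edil3, an integrin ligand of the vessel wall (-2.04), lay inside, and the small heat shock protein gene Hspb8 (-1.998), Pyroxd2 (-1.998) and Tmem252 (-1.95) lay outside. Under HFD the smaller difference was 1.80 for Dusp26, -2.25 for Hspb8 and -1.97 for Prmt8, so genes on either side of the threshold were alike in size.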

How the data were processed

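Poly(A) RNA of islets was sequenced as stranded TruSeq libraries with single-end reads of 125 bases, per the labels' protocols. STAR 2.5.3a, HTSeq 0.9.1, edgeR (no version given) and GRCm38 are named in the submitters' processing notes. The deposited table holds log2 CPM values normalized by the authors, for 14604 genes in 69 of the 72 samples. The other 3 samples (C57BL/6J RC day 33 replicate 3, DBA/2J HFD day 13 replicate 4 and DBA/2J RC day 33 replicate 4) were not analysed here. From the deposited CPM, whole reads were recovered for 100% of values checked, those under 2000 reads, within 0.05 reads. The recovered reads had a median of 22756199 per library, and replicates differed by more than counting error. The label C56BL/6J was taken to mean C57BL/6J, and the days 5, 13 and 33 of the sample labels were used, although the series text gives the last as 13.

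Strain contrasts were fitted to the 35 HFD libraries, and diet and day contrasts to all 69, with 1 mean per group, using limma 3.58.1 (lmFit, eBayes with trend) in R 4.3.3. Tests are two-sided. Adjustment was that of Benjamini and Hochberg (Benjamini-Hochberg) over all 14604 genes, with 0.05 as the threshold, and values after ± are standard errors. The function was tested on simulated data. Copies were found with blastn 2.17.0 on transcripts of the mouse GENCODE release M21, to which 14589 identifiers matched. For 47 of the 62 genes whose symbol was missing or turned into a date, it was taken from the annotation.

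The genes, lists and tests were chosen with earlier results of these data known. By rule, the text names the 10 highest and 10 lowest protein-coding genes, genes on a list, the called genes with the lowest p in each comparison, genes failing under HFD and those nearest the threshold. Predicted genes, pseudogenes and non-coding genes come under the rule only for the last 2 of these. Fmo1, Fmo2, Fmo4, Fmo5, Cyp39a1, the Ppp1r3, Slc and Iqgap genes other than Slc26a1, Aplnr, Apln, Stc2, Tnr, Trim34a, Trim34b, AI506816, the predicted and non-coding genes of the diet, day and cluster results and the copies with their matches were named after their values were seen. Groups of biological role were also formed after the values were seen. Alternatives covered the scale, filters, covariates, array weights, days, single libraries, limma voom and the thresholds of the rule.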

Additional observations from a re-analysis of the deposited data

Results flagged for a closer look

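The 9 genes called for diet or day were scanned in 135 groups of 4 libraries (strain, diet and day), and 13 values stood far from the other 3 of their group. In 6 of these the other 3 libraries had no read, so that any read stands apart and the usual rate of chance, about 1 in 20 groups, does not apply. They were S100z at -2.85 log2 CPM in DBA/2J RC day 13 replicate 2, at -2.73 in DBA/2J HFD day 5 replicate 4, at -3.01 in DBA/2J HFD day 33 replicate 2 and at -3.09 in BALB/cJ HFD day 13 replicate 2, and Trim12a at -2.93 in BALB/cJ RC day 13 replicate 2 and at -2.99 in BALB/cJ HFD day 33 replicate 1. In C57BL/6J, Trim12a was at 1.85 in HFD day 5 replicate 2, Rnf150 at 5.83 in RC day 5 replicate 4, and Gm10260 at the floor, -3.54, in RC day 13 replicate 1 and HFD day 13 replicate 1. In BALB/cJ, A930015D03Rik was at 3.36 in RC day 5 replicate 1, Gm15920 at 3.21 in RC day 5 replicate 3 and 2700038G22Rik at 1.91 in HFD day 33 replicate 4.

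The diet effect of A930015D03Rik in C57BL/6J exceeded that in DBA/2J by 0.67 and that in BALB/cJ by 0.74 on the log2 scale. Between day 5 and day 33 of HFD, the difference between C57BL/6J and DBA/2J changed by 1.32 for Gm13394 and by 1.45 for Gm10260. All 4 passed a test of the difference itself, and their explanations were not tested.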

How the results depend on the processing

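Counts below are of the 119 genes. The HFD strain differences held under nearly all alternatives. Without single libraries, 117 to 119 genes differed from DBA/2J, 119 from BALB/cJ and 117 to 119 from both, and 32 to 38 differed between DBA/2J and BALB/cJ. Testing only genes with a mean log2 CPM above 1, which keeps 57 of the 119, gave 56, 57, 56 and 16. Without single libraries the diet count in C57BL/6J (6) ran from 3 to 10, in DBA/2J and BALB/cJ it was 0, and the differences in diet effect ran from 1 to 2 against DBA/2J and from 1 to 3 against BALB/cJ (2 without C57BL/6J HFD day 33 replicate 4, C57BL/6J RC day 13 replicate 1, DBA/2J RC day 13 replicate 3, BALB/cJ HFD day 33 replicate 2 or BALB/cJ RC day 33 replicate 3). Day 33 minus day 5 ran from 0 to 3 in C57BL/6J, from 1 to 7 for the change of the difference from DBA/2J (7 without C57BL/6J HFD day 33 replicate 1) and was 0 for BALB/cJ. Membership of the rule ran from 117 to 122.

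The diet count in C57BL/6J was 19 with array weights, 3 with cell type scores as covariates, 2 without day 5 and 3 without day 13, and in DBA/2J it was 4 with array weights. The differences in diet effect from DBA/2J and BALB/cJ numbered 2 and 4 with log2(CPM + 1), 7 and 4 with array weights, 0 and 0 without day 13 and 0 and 0 without day 33, and that from BALB/cJ 0 without day 5. Day 33 minus day 5 in C57BL/6J was called for 2 genes with log2(CPM + 1), 0 with the filter, 13 with array weights, 0 with covariates, 3 without day 13 and 2 with voom. Its change against DBA/2J was called for 27 with array weights, 4 with all libraries in one fit and 1 with voom. The rule gave 179 genes at a difference of 1.5, 73 at 3, 62 with log2(CPM + 1) and 128 with medians, 113 of them shared. Beyond the filtered, shifted or smaller designs, the cause of these moves was not tested. Of 105 calls of single genes, most of them HFD strain differences, 92 held under every alternative and 0 reversed. Among the diet and day calls, only the diet change of A930015D03Rik in C57BL/6J and the day change of Gm10260 held under every alternative.

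Same-numbered libraries were not shown to be paired: their deviations correlated from -0.29 to 0.35 over 21 pairs, with a median of 0.05, and 9 were over 0.1. With the title number as a replicate block the diet count in C57BL/6J was 7, and the other counts did not move. The planned edgeR and DESeq2 fits were not run, and limma voom on the recovered reads was used in their place. Voom, the all-library fit for days and the day contrasts without day 13 were added after seeing the data. Genes at a few reads, such as Gm10260, Eno1b, S100z and Trim12a outside their high strains, are limited by depth.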
